A study of Trametes coccinea with 9 samples.

Results

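The mannan-degrading enzymes described here are 5 genes of the white-rot fungus *Pycnoporus coccineus*, chosen by gene number from 12690 gene models and named below by locus tag (PYCCODRAFT_1359888), whose digits are that number. Gene 1359888's product is an endo-mannanase of family GH5_7 with a CBM1 domain, 1388575's and 236998's products are GH5_7 endo-mannanases without one, 1369807's is a GH2 β-mannosidase and 1440257's a GH27 α-galactosidase. The families are those of the study's annotation of carbohydrate-active enzymes, and the activities are predicted from sequence. The genes were picked with their levels on wood and on maltose already known. Those levels and the fold changes over maltose are therefore a description with no test. Pine against aspen was tested, because the choice rested mainly on the comparisons with maltose. The pine and aspen levels were also known at that time, so the p-values of this contrast are not independent of the choice. All 5 genes passed the filter on low counts.

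Mannans are hemicelluloses, and galactoglucomannan is the main hemicellulose of softwoods such as pine, whereas hardwoods such as aspen hold mostly xylan and some glucomannan. Endo-mannanases cut the mannan backbone internally, β-mannosidases release mannose from the chain ends, and α-galactosidases remove the galactose side groups. A CBM1 domain, which PYCCODRAFT_1359888 carries beside its catalytic domain, is a module that binds cellulose.

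Cultures of the monokaryotic strain CIRM-BRFM310 were grown in shaken liquid medium at 30 °C and the mycelium was harvested on day 3. There were 3 cultures on pine, 3 on aspen and 3 on maltose, which the study describes as independent. By the methods, the pine and aspen media held 15 g/l ground wood with 2.5 g/l maltose, and the maltose medium held 20 g/l maltose and no wood. Wood and a lower maltose concentration came together in both wood media and cannot be told apart, and the pine, sifted and with bark, was prepared differently from the milled aspen. The study and its comparisons concerned which enzymes the fungus expresses on a softwood and on a hardwood.

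Total counts were 28399534 to 38654866 on pine, 32699904 to 33947846 on aspen and 29889534 to 35011152 on maltose. Raw counts correlated across genes with Pearson's r of 0.913 to 0.943 among pine libraries, 0.967 to 0.988 among aspen libraries and 0.949 to 0.992 among maltose libraries. After removal of genes with a mean count under 5, 11130 genes were tested. Levels are given as CPM, the count relative to library size after scaling by the trimmed mean of M-values (TMM), with the SD over 3 cultures.

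The CBM1-bearing endo-mannanase PYCCODRAFT_1359888 was the most abundant of the 3 endo-mannanases on both woods, by reads and per kb of gene. It had 392, 811 and 111 CPM in the pine cultures, 407, 250 and 465 CPM in the aspen cultures, and 4.77, 4.95 and 13.3 CPM in the maltose cultures. All 6 wood libraries lay above all 3 maltose libraries, and the third maltose library was the highest of its group. The mean of 438 ± 352 CPM on pine carried a spread of 7.30-fold between its highest and lowest culture, against 1.86-fold on aspen, where the mean was 374 ± 111 CPM. The fitted log2 fold change over maltose was 5.83 (SE 0.69) on pine and 5.60 (SE 0.68) on aspen. Single libraries moved these estimates, to 5.02 on pine without pine replicate 2 and, without maltose replicate 3, to 6.49 on pine and 6.26 on aspen. With the length to which reads were trimmed as a term, they were 5.20 on pine and 4.74 on aspen.

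The GH5_7 endo-mannanase PYCCODRAFT_1388575 has no CBM1 in the annotation. It was less abundant than PYCCODRAFT_1359888 in every library, by reads and per kb of gene. Its levels were 19.7, 10.4 and 3.46 CPM on pine, 34.0, 21.8 and 34.8 CPM on aspen, and 2.37, 2.88 and 3.79 CPM on maltose. The third pine culture lay inside the maltose range, so pine and maltose overlapped, while aspen lay above both other groups in every culture. The log2 fold change over maltose was 1.89 (SE 0.47) on pine, or 1.20 without pine replicate 1, and 3.32 (SE 0.48) on aspen.

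The GH5_7 endo-mannanase PYCCODRAFT_236998 had the opposite order. It was measured at 1.53, 1.54 and 1.37 CPM on pine, at 5.66, 4.08 and 3.79 CPM on aspen, and at 16.8, 17.8 and 12.7 CPM on maltose. No group overlapped another: pine was lowest, aspen intermediate and maltose highest. These levels rest on 34 to 53 reads per pine library, 128 to 198 per aspen library and 481 to 643 per maltose library. The log2 fold change over maltose was -3.41 (SE 0.26) on pine and -1.80 (SE 0.24) on aspen.

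The GH2 β-mannosidase PYCCODRAFT_1369807 had 123, 142 and 73.7 CPM on pine, 78.7, 83.1 and 102 CPM on aspen, and 11.0, 9.71 and 14.8 CPM on maltose. Every wood library was above every maltose library, and the pine and aspen libraries overlapped. Its log2 fold change over maltose was 3.25 (SE 0.27) on pine and 2.89 (SE 0.27) on aspen.

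The GH27 α-galactosidase PYCCODRAFT_1440257 had 330, 398 and 253 CPM on pine, 223, 277 and 317 CPM on aspen, and 27.4, 32.7 and 37.8 CPM on maltose. As for the β-mannosidase, the wood libraries all lay above the maltose libraries and overlapped each other. Its log2 fold change over maltose was 3.32 (SE 0.25) on pine and 3.06 (SE 0.24) on aspen.

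**Figure D1:**
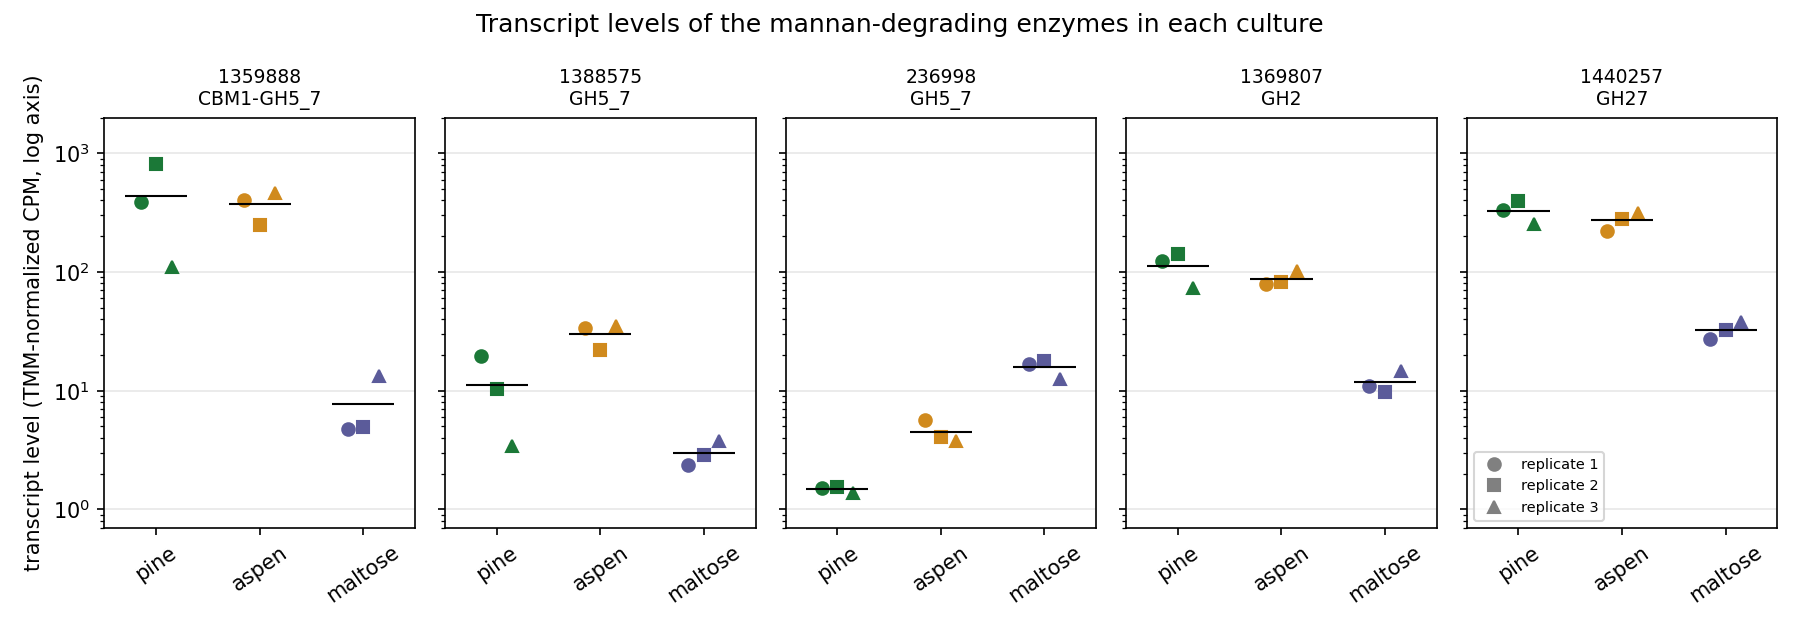
Transcript level of each of the 5 enzymes (TMM-normalized CPM, log axis) in the 3 pine, 3 aspen and 3 maltose cultures, with a symbol per replicate and a line at the group mean. 4 genes sit higher on wood, although pine replicate 3 of PYCCODRAFT_1388575 (3.46 CPM) falls among the maltose cultures, and PYCCODRAFT_236998 sits lowest on pine and highest on maltose.

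Across the 5 genes, 3 lay higher in every pine library than in any maltose library, as did 30.4% of all genes tested, 1 lay lower, as did 32.0%, and 1 overlapped. On aspen, 4 lay higher than maltose in every library, against 32.4% of all genes, and 1 lay lower, against 31.9%. These comparisons were known when the genes were picked, so nothing is read from the counts, or from the medians and ranks that follow. The median log2 fold change of the 5 over maltose was 3.25 on pine and 3.06 on aspen, beside -0.03 and -0.02 over all genes tested. Among the 11130 genes, PYCCODRAFT_1359888 ranked 56th from the top in the fold change on pine and 95th on aspen, and PYCCODRAFT_236998 ranked 145th from the bottom on pine and 626th on aspen.

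**Figure D2:**
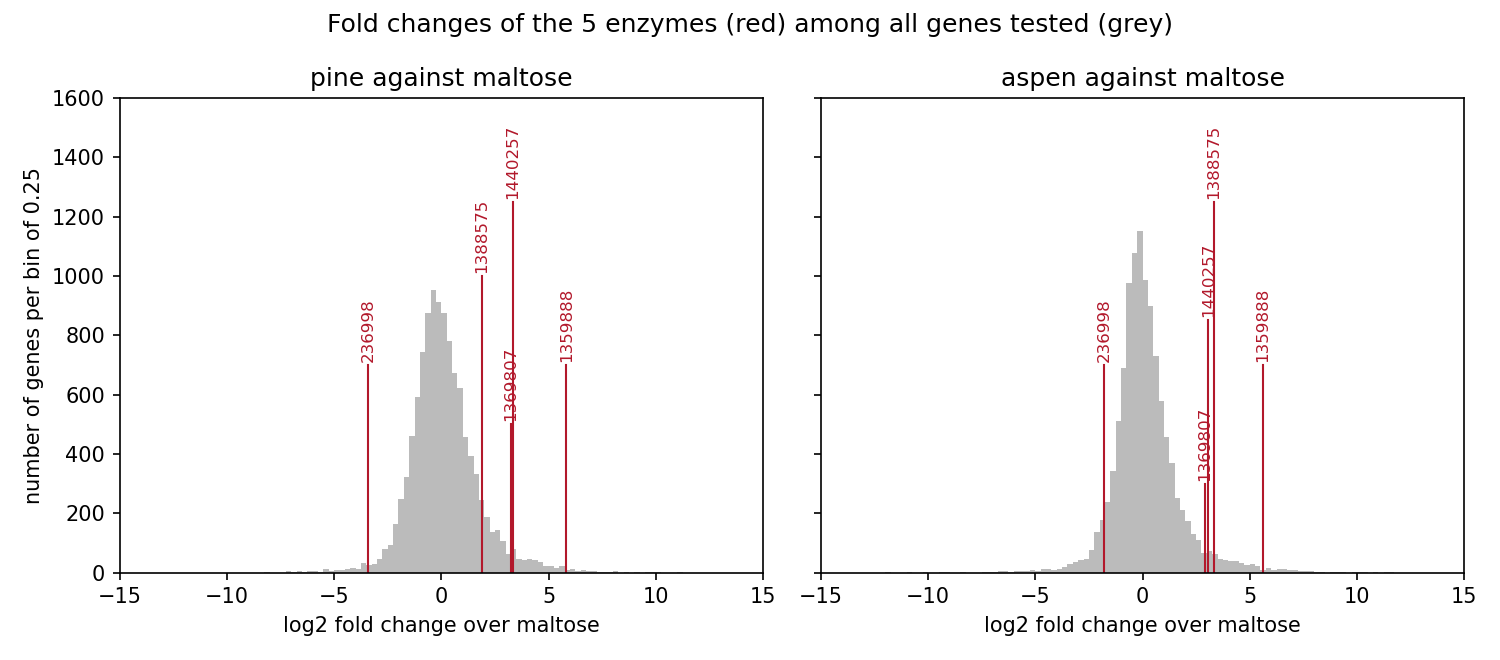
Number of genes (grey, bins of 0.25) by log2 fold change over maltose, on pine in the left panel and on aspen in the right, with the 5 enzymes as red lines whose height carries no value. The lines of PYCCODRAFT_1359888 stand at 5.83 and 5.60 and those of PYCCODRAFT_236998 at -3.41 and -1.80, on opposite sides of the bulk of genes.

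Levels of different genes were compared per kb of gene span, introns included. The spans were 2093 bp for PYCCODRAFT_1359888, 2529 bp for PYCCODRAFT_1388575, 925 bp for PYCCODRAFT_236998, 3617 bp for PYCCODRAFT_1369807 and 3366 bp for PYCCODRAFT_1440257. On pine, PYCCODRAFT_1359888 averaged 209 ± 168 CPM per kb and the α-galactosidase 97.1 ± 21.5 CPM per kb, and these overlapped between libraries. The β-mannosidase followed at 31.2 ± 9.71 CPM per kb, apart from both neighbours in that order. The last positions, PYCCODRAFT_1388575 at 4.42 ± 3.21 and PYCCODRAFT_236998 at 1.60 ± 0.105 CPM per kb, overlapped.

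On aspen the same order held with no overlap between neighbours. The levels were 179 ± 53.0 CPM per kb for PYCCODRAFT_1359888, 80.9 ± 14.0 for PYCCODRAFT_1440257, 24.3 ± 3.46 for PYCCODRAFT_1369807, 11.9 ± 2.87 for PYCCODRAFT_1388575 and 4.88 ± 1.09 for PYCCODRAFT_236998. On maltose PYCCODRAFT_236998, the lowest of the 5 on both woods, was the highest, at 17.0 ± 2.94 CPM per kb. The α-galactosidase followed at 9.69 ± 1.55, then PYCCODRAFT_1359888 at 3.67 ± 2.33 and the β-mannosidase at 3.28 ± 0.727, which overlapped, and PYCCODRAFT_1388575 at 1.19 ± 0.284 CPM per kb.

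Which endo-mannanase gene the reads came from was also tallied in each culture. The annotation holds 4 GH5_7 genes, the fourth being PYCCODRAFT_1360093, which also bears a CBM1. Of all reads on these 4 genes, PYCCODRAFT_1359888 took 94.3%, 97.9% and 94.7% in the pine cultures, 90.6%, 90.0% and 91.6% in the aspen cultures, and 19.6%, 19.0% and 43.4% in the maltose cultures. The PYCCODRAFT_236998 gene took 0.368%, 0.186% and 1.16% on pine, 1.26%, 1.47% and 0.746% on aspen, and 68.8%, 68.1% and 41.3% on maltose.

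In the first and second maltose cultures PYCCODRAFT_236998 was thus the main GH5_7 transcript by read share. In the third its share, with an exact 95% Clopper-Pearson interval of 38.4 to 44.2%, overlapped that of PYCCODRAFT_1359888, 40.6 to 46.3%. These intervals cover counting error only, and reads of 1 pair entered the counts separately, which makes them narrower than the number of fragments allows. The share of PYCCODRAFT_1388575 was 1.26 to 4.73% on pine, 6.86 to 7.84% on aspen and 9.72 to 12.4% on maltose.

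**Figure D3:**
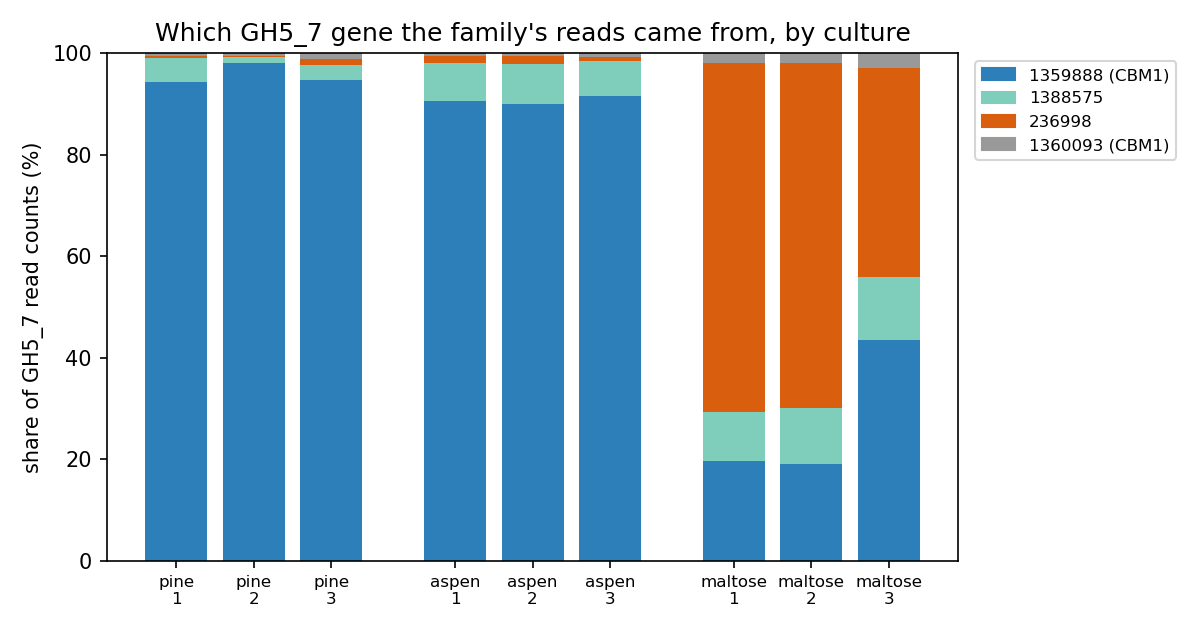
Share of the GH5_7 read counts (%) that each of the 4 GH5_7 genes took in each culture, as stacked bars that add up to the whole family. PYCCODRAFT_1359888 takes at least 90.0% in every wood culture, whereas PYCCODRAFT_236998 takes 41.3 to 68.8% in the maltose cultures.

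Pine was then compared with aspen, the contrast that bears on softwood and hardwood directly. None of the 5 genes was called higher on pine by edgeR's quasi-likelihood test (0 at an unadjusted p under 0.05, and 0 by DESeq2), and 2 of 5 were called lower. Of all genes tested, 30.3% were called in this contrast, 15.2% higher and 15.1% lower. The 2 genes called were the GH5_7 endo-mannanases without a CBM1.

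The PYCCODRAFT_236998 transcript was 3.04-fold lower on pine than on aspen, with a log2 fold change of -1.61 (SE 0.25, adjusted p = 0.000883) and all 3 pine cultures below all 3 aspen cultures, as in 24.8% of all genes. When any 1 library was left out, the log2 fold change stayed between -1.72 and -1.41, with adjusted p of 0.00126 to 0.00441.

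The PYCCODRAFT_1388575 transcript was 2.69-fold lower on pine, with a log2 fold change of -1.43 (SE 0.45, adjusted p = 0.0287), again with no overlap between the groups. Its call did not hold under every setting. The adjusted p was 0.0939 without pine replicate 2, 0.0824 without aspen replicate 1, 0.0728 without aspen replicate 3 and 0.0536 with the maltose libraries left out of the fit. Without pine replicate 1 the log2 fold change was -2.12. The pine and aspen libraries also differed in 2 technical features, the length to which reads were trimmed and the prefix of the library code. Pine replicate 2 and aspen replicates 1 and 3 had the longer reads, and all pine libraries shared a prefix with aspen replicate 3, so that neither feature set apart 2 cultures of each wood to compare. What the prefix marks is not given in the sources used here. With trim length in the model the log2 fold change was -1.31 (adjusted p = 0.0764) for PYCCODRAFT_1388575 and -1.55 (adjusted p = 0.00311) for PYCCODRAFT_236998. With the code prefix it was -1.38 (adjusted p = 0.105) for PYCCODRAFT_1388575 and -1.65 (adjusted p = 0.00941) for PYCCODRAFT_236998.

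The other 3 enzymes were not called between the woods, and the interval of each ratio included 1. For PYCCODRAFT_1359888 the pine to aspen ratio was 1.17, with a 95% interval of 0.508 to 2.70 and an adjusted p of 0.786. Its log2 fold change of 0.23 took the other sign, -0.58, without pine replicate 2. For the β-mannosidase PYCCODRAFT_1369807 the ratio was 1.28 (95% interval 0.881 to 1.86, adjusted p = 0.298), and for the α-galactosidase PYCCODRAFT_1440257 it was 1.20 (95% interval 0.856 to 1.68, adjusted p = 0.401).

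**Figure D4:**
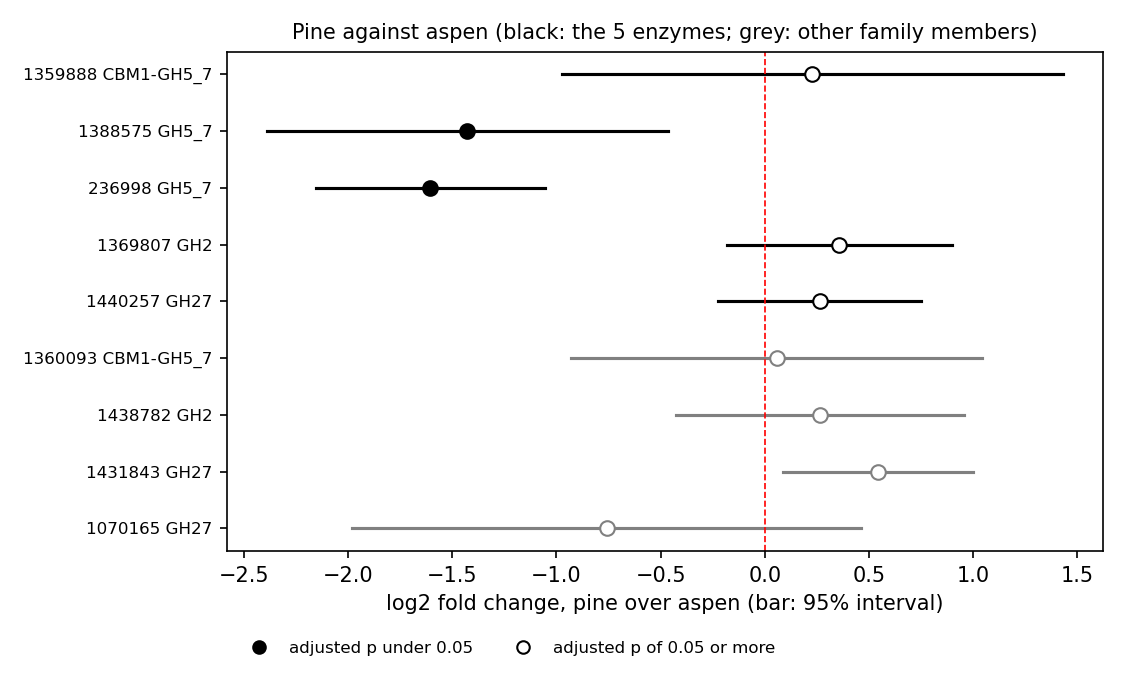
Log2 fold change of pine over aspen with its 95% interval for the 5 enzymes (black) and for the 4 other tested genes of families GH5_7, GH2 and GH27 (grey), filled where the adjusted p was under 0.05. Only PYCCODRAFT_1388575 (-1.43) and PYCCODRAFT_236998 (-1.61) are filled.

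Ratios of 2 enzymes within a library do not depend on the scaling between libraries. In 10 pairs the log2 ratio was compared between 3 pine and 3 aspen cultures by an exact two-sided permutation test, in which the smallest possible p is 0.1. The log2 ratio of PYCCODRAFT_236998 to the α-galactosidase differed by -1.83 and that to the β-mannosidase by -1.89, each at that smallest p (exact permutation, adjusted p = 0.2). The corresponding differences for PYCCODRAFT_1388575 were -1.98 and -2.04, at the same p, and the design cannot reach 0.05. The ratio of PYCCODRAFT_1359888 to PYCCODRAFT_1388575 differed by 1.59, again at the smallest p, and that to PYCCODRAFT_236998 by 1.44 with overlapping groups (exact permutation p = 0.2, adjusted p = 0.333). Between the 2 endo-mannanases without a CBM1 the difference was -0.15 (exact permutation p = 1). For PYCCODRAFT_1359888 over the α-galactosidase it was -0.40 and over the β-mannosidase -0.45 (exact permutation p = 0.7 for each).

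The α-galactosidase and the β-mannosidase stayed close in ratio, with 2.48 to 3.44 α-galactosidase reads per β-mannosidase read over all 9 libraries. The α-galactosidase had 2.68, 2.81 and 3.44 times as many reads as the β-mannosidase on pine, 2.83, 3.34 and 3.10 times on aspen, and 2.48, 3.37 and 2.56 times on maltose. The groups overlapped. Between pine and aspen the log2 ratio differed by -0.06 (exact two-sided permutation p = 0.7, adjusted p = 0.778).

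The profiles were compared as the root mean square difference of the log2 CPM over the 9 libraries, after centring each gene on its own mean. The PYCCODRAFT_1440257 and PYCCODRAFT_1369807 profiles lay 0.168 apart, and of all tested genes none was closer to PYCCODRAFT_1369807 and 1 was closer to PYCCODRAFT_1440257. The median distance to all genes was 1.61 from PYCCODRAFT_1440257. The second nearest annotated enzyme to both was the GH28 polygalacturonase PYCCODRAFT_1469372, of a family that cuts pectin, at 0.304 from PYCCODRAFT_1440257, with 23 tested genes closer, and 0.243 from PYCCODRAFT_1369807, with 4 closer.

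The gene nearest to PYCCODRAFT_1359888 among all tested was the CBM1-bearing GH5_5 gene PYCCODRAFT_1375024, of an endoglucanase family, at a distance of 0.344. It had 89.0, 298 and 36.3 CPM on pine, 179, 71.0 and 169 CPM on aspen, and 1.07, 1.13 and 2.89 CPM on maltose. As in PYCCODRAFT_1359888, pine replicate 2 was the highest pine culture, pine replicate 3 the lowest and maltose replicate 3 the highest maltose culture. The gene was picked as the nearest over these same libraries, so the likeness follows from the choice. The next was the GH28 polygalacturonase PYCCODRAFT_1370654, at 0.363.

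For PYCCODRAFT_1388575 the nearest annotated enzymes were the GH18 gene PYCCODRAFT_1471466, of a chitinase family, at 0.438 and the GH47 α-mannosidase PYCCODRAFT_1369367 at 0.470, with 1 and 2 tested genes closer. For PYCCODRAFT_236998 they were the AA3_2 oxidoreductase PYCCODRAFT_1462838 at 0.398 and the gene PYCCODRAFT_148891, annotated EXP, at 0.435, with 27 and 45 tested genes closer. The AA3_2 gene had 7.96, 4.45 and 5.91 CPM on pine, 11.6, 13.6 and 10.4 CPM on aspen, and 44.7, 66.9 and 56.7 CPM on maltose, the same order of groups as PYCCODRAFT_236998. As the AA3_2 gene was picked by its near profile, this shared order follows from the choice. The 2 endo-mannanases without a CBM1 were 2.45 apart from each other, and PYCCODRAFT_1359888 and PYCCODRAFT_236998 were 4.01 apart.

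The same cultures were the highest or lowest of their group in several of the 5 genes. Pine replicate 3, the library with the lowest total count, was the lowest pine library for all 5 genes, and pine replicate 2 was the highest for 4. Aspen replicate 3 was the highest aspen library for 4 genes, and maltose replicate 3 the highest maltose library for 4. The sum over the 5 genes was 866, 1363 and 443 CPM on pine, 749, 637 and 923 CPM on aspen, and 62.3, 68.0 and 82.4 CPM on maltose. How often each library was the highest or lowest of its group over all genes was not counted. The pine cultures of PYCCODRAFT_236998 spanned only 1.37 to 1.54 CPM, on 34 to 53 reads each. The part of these libraries in the spread was not tested beyond leaving each out.

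Families GH5_7, GH2 and GH27 hold 5 further genes, of which 4 passed the filter. All 4 were called higher than maltose on pine and on aspen, against 29.1% and 26.3% of all genes. None was called between pine and aspen by edgeR, while 1 had an unadjusted p under 0.05 and was called higher on pine by DESeq2.

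The CBM1-bearing GH5_7 gene PYCCODRAFT_1360093 had 2.54, 5.10 and 1.37 CPM on pine, 2.80, 1.84 and 4.02 CPM on aspen, and 0.474, 0.498 and 0.894 CPM on maltose. These levels rest on 34 to 149 reads per pine library, 66 to 136 per aspen library and 16 to 34 per maltose library. Wood and maltose did not overlap in CPM, although pine replicate 3 and maltose replicate 3 had 34 reads each. The gene rose on pine by 2.26 (SE 0.50, adjusted p = 0.00180) and on aspen by 2.20 (SE 0.50, adjusted p = 0.00254) on the log2 scale. With trim length in the model the rise on aspen was 1.39 (adjusted p = 0.0292), and without pine replicate 2 that on pine was 1.64 (adjusted p = 0.0118). Per kb it stayed far below PYCCODRAFT_1359888, at 1.41 ± 0.898 CPM per kb on pine, 1.36 ± 0.514 on aspen and 0.293 ± 0.111 on maltose.

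The second GH2 gene, PYCCODRAFT_1438782, had 35.7, 58.5 and 34.0 CPM on pine, 21.0, 36.4 and 49.1 CPM on aspen, and 6.37, 8.91 and 11.9 CPM on maltose. It rose on both woods, by 2.24 on pine (adjusted p = 9.51e-05) and by 1.97 on aspen (adjusted p = 0.000309) on the log2 scale. Pine and aspen overlapped.

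Per kb, the GH27 gene PYCCODRAFT_1431843 was the most abundant of the tested GH27 transcripts in every library. Its means were 166 CPM per kb on pine, 114 on aspen and 43.9 on maltose. Those of PYCCODRAFT_1440257 were 97.1, 80.9 and 9.69 CPM per kb. PYCCODRAFT_1431843 had 441, 478 and 301 CPM on pine, 292, 251 and 295 CPM on aspen, and 104, 119 and 100 CPM on maltose. It rose on pine by 1.92 (adjusted p = 9.43e-06) and on aspen by 1.37 (adjusted p = 0.000162) on the log2 scale. All pine libraries were above all aspen libraries, with a ratio of 1.46 (95% interval 1.06 to 2.00, unadjusted p = 0.0232, adjusted p = 0.0686). DESeq2 gave an adjusted p of 0.0168, and edgeR gave 0.0211 without pine replicate 3 and 0.0444 with DESeq2 size factors. Every other edgeR setting gave no call. Among them the adjusted p was 0.287 with the code prefix in the model and 0.207 without pine replicate 2.

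The GH27 gene PYCCODRAFT_1070165 had 1.61, 0.342 and 0.321 CPM on pine, 1.23, 1.48 and 1.24 CPM on aspen, and 0.178, 0.166 and 0.316 CPM on maltose. Its levels rest on only 8 to 56 reads per pine library, 42 to 53 per aspen library and 6 to 12 per maltose library. Its rise on aspen was 2.56 on the log2 scale (adjusted p = 0.00440). On pine it was 1.80 (adjusted p = 0.0282), and this did not pass without pine replicate 1 (0.58, adjusted p = 0.367), without maltose replicate 1 (1.66, adjusted p = 0.0827) and without maltose replicate 2 (1.63, adjusted p = 0.0852). Without pine replicate 1 it was called lower on pine than on aspen (-1.97, adjusted p = 0.00954). The fifth gene, the GH27 model PYCCODRAFT_1464704, had 0 to 6 reads per library and was not tested. It overlaps PYCCODRAFT_1070165 by 111 bp.

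The PYCCODRAFT_236998 and PYCCODRAFT_1388575 genes lie close together in the reference annotation, with the unnamed model PYCCODRAFT_237344 as the only one between them. The models overlap in part, and the counts cannot tell reads of overlapping genes apart unless strand was used, which is not given in the sources used here. PYCCODRAFT_237344 overlaps PYCCODRAFT_1388575 by 222 bp, and PYCCODRAFT_1434503 on the other side overlaps PYCCODRAFT_236998 by 146 bp. The PYCCODRAFT_237344 model averaged 15.1 reads per library, against 505 for PYCCODRAFT_1388575.

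On aspen these neighbouring endo-mannanases stood on opposite sides of maltose, and on pine PYCCODRAFT_236998 lay below maltose while PYCCODRAFT_1388575 overlapped it. The genes beside them were picked after their values were seen and are described with no test. The PYCCODRAFT_237344 transcript between them had 14 to 39 reads per pine library, 14 to 24 per aspen library and 2 to 3 per maltose library, and it passed the filter on low counts only through the wood libraries. The next gene beyond PYCCODRAFT_1388575, PYCCODRAFT_1409375, had 3.54 to 5.91 CPM on pine, 7.64 to 10.9 CPM on aspen and 16.8 to 20.8 CPM on maltose, the same order of groups as PYCCODRAFT_236998.

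The PYCCODRAFT_1434503 transcript, which overlaps PYCCODRAFT_236998, had a mean of 37.5 CPM on pine, 20.7 CPM on aspen and 28.4 CPM on maltose. Its log2 fold change of pine over aspen was 0.86 (SE 0.26), the other sign from PYCCODRAFT_236998. The β-mannosidase PYCCODRAFT_1369807 overlaps the more abundant PYCCODRAFT_1413175 by 62 bp, and PYCCODRAFT_1413175 averaged 436 CPM on each wood with a log2 fold change of 1.16 over maltose on both. The part of the shared reads in any of these results was not tested.

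**Figure D5:**
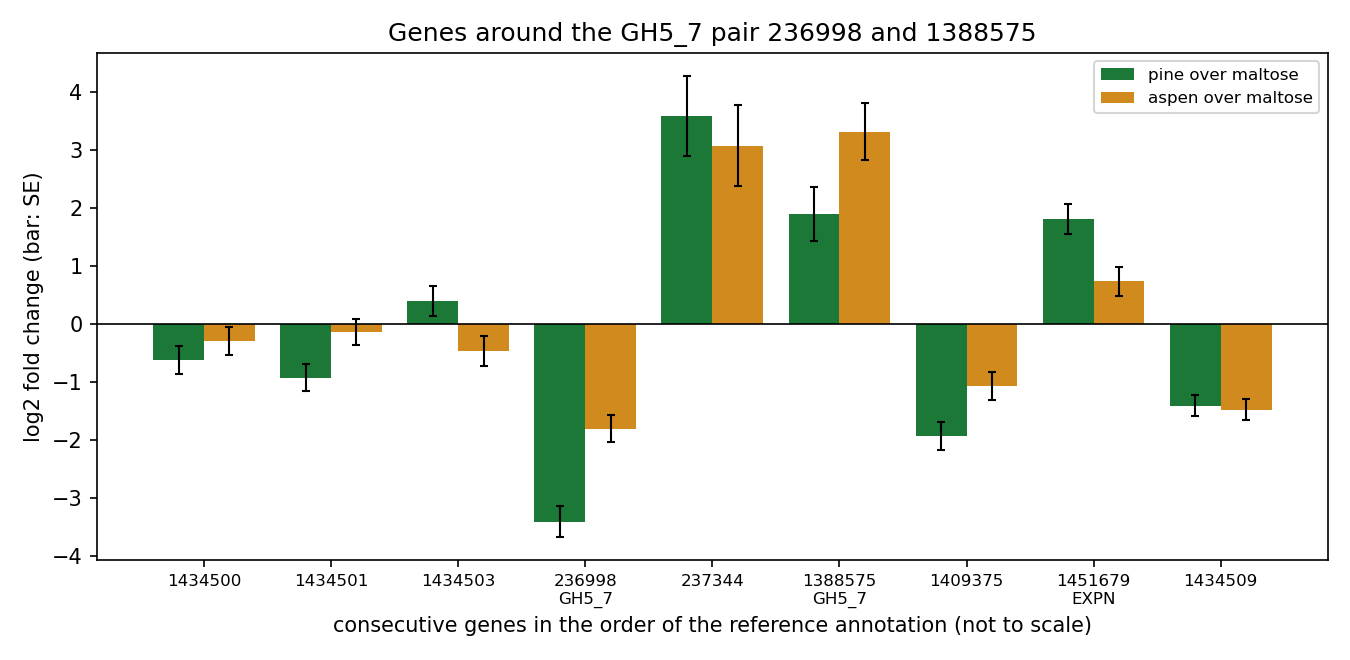
Log2 fold change over maltose (bars, with SE) on pine and aspen for 9 consecutive genes of the reference annotation around PYCCODRAFT_236998 and PYCCODRAFT_1388575, in gene order and not to scale. The bars of PYCCODRAFT_236998 point down (-3.41 and -1.80) and those of PYCCODRAFT_237344, which rest on 2 to 3 reads per maltose library, and of PYCCODRAFT_1388575 point up.

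Related gene lists place these values. Of all genes tested, 15.2% were called higher and 15.1% lower on pine than on aspen. Against maltose, 29.1% were called higher on pine and 26.3% on aspen. These shares stand beside the counts of every list below. The lists overlap, as CBM1-bearing genes such as PYCCODRAFT_1426850 of GH10 and PYCCODRAFT_1404940 of GH3 also count in their family's list. Between pine and aspen, 10 of 22 CBM1-bearing proteins were lower on pine and 0 higher, with a median log2 fold change of -1.27 beside -0.05 over all genes tested. Within that list PYCCODRAFT_1359888, at 0.23, ranked 4th from the top, although that fold change was -0.58 without pine replicate 2. Against maltose it ranked 8th of the 22 on pine, where their median was 4.05, and 12th on aspen, where it was 5.63. In all, 20 of the 22 were called higher than maltose on pine and 22 on aspen. The most changed CBM1 proteins between the woods were the CE1 esterase PYCCODRAFT_1377160 (-5.46, adjusted p = 1.55e-07) and the GH5_5 endoglucanase PYCCODRAFT_1434718 (-3.65, adjusted p = 0.000547), both lower on pine.

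Xylan is the other main hemicellulose, and 3 of 6 GH10 xylanases were lower on pine than on aspen, with a median of -1.27. The largest differences were those of PYCCODRAFT_1395316 (-6.62, adjusted p = 5.33e-08) and PYCCODRAFT_1426850 (-3.45, adjusted p = 7.50e-05). Of the CE16 acetyl esterases, 4 of 7 were lower on pine and 0 higher, with a median of -0.82, led by PYCCODRAFT_1437703 (-2.64, adjusted p = 0.000888) and PYCCODRAFT_1429512 (-1.37, adjusted p = 0.0382). Against maltose, 6 of 6 GH10 genes were called higher on pine and 5 of 6 on aspen, and 5 of 7 CE16 genes on each wood.

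β-Glucosidases of families GH1 and GH3, which release glucose from oligosaccharide ends, went in both directions between the woods. The GH3 gene PYCCODRAFT_1434274 was higher on pine (2.25, adjusted p = 0.000300) and the CBM1-bearing GH3 gene PYCCODRAFT_1404940 lower (-2.15, adjusted p = 0.0125). In all, 1 of 9 was higher, 3 were lower and the median was -0.50. Against maltose, 8 of 9 were called higher on each wood.

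α-Mannosidases cut α-linked mannose, as in fungal glycans, and not the β-linked mannan of wood. Of 11 α-mannosidases, 1 was higher and 4 lower on pine than on aspen, with a median of -0.16. The GH47 gene PYCCODRAFT_1436992 was lower on pine (-1.78, adjusted p = 0.000387) and the GH47 gene PYCCODRAFT_1423703 higher (1.54, adjusted p = 0.00179). Against maltose, 10 of the 11 were called higher on pine and 11 of 11 on aspen. Of 8 genes in families that hold fungal mannosyltransferases, 5 were higher on pine than on aspen and 0 lower, with a median of 0.63, led by the GT32 gene PYCCODRAFT_1364471 (1.16, adjusted p = 0.00491) and the GT33 gene PYCCODRAFT_1405373 (1.13, adjusted p = 0.00474). Against maltose, 5 of these 8 were called higher and 0 lower on pine, and 4 higher and 2 lower on aspen, beside 28.8% of all genes tested called lower on pine and 24.9% on aspen.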

How the data were processed

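RNA-seq libraries from 3 pine, 3 aspen and 3 maltose cultures were used. Per the methods and the submitters' processing notes, paired reads were trimmed, aligned uniquely to the strain's genome with TopHat2 and counted per gene with HTSeq. The deposited raw counts are whole reads per gene for 12690 genes. The deposited normalized values are a signal that the authors made with DESeq (version 1.5 in the notes). They equal the counts times 1 constant per library, from 0.990 to 1.59, cover 11202 genes, and served only to set that scaling as an alternative.

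Counts were analysed in R 4.3.3 with edgeR 4.0.16 (TMM, glmQLFit, glmQLFTest). Genes with a mean count of at least 5 were kept, which left 11130. One model with 3 groups was fitted to all 9 libraries, and p-values were adjusted by Benjamini-Hochberg over all genes tested, with a threshold of 0.05. SE was derived from the log2 fold change and the F statistic of its test. Profiles used log2 CPM with a prior count of 2, and ratios a count of 0.5 added. The alternatives were DESeq2 1.42.0, its size factors or the deposited scaling in edgeR, other filters on low counts, each library left out, the replicate number, trim length or code prefix as a factor, and pine and aspen alone. In counts simulated for pine against aspen (11130 genes, 200 changed), the test found 38% of the 2-fold and 96% of the 4-fold changes.

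The 5 genes and the lists were chosen with earlier results of these data known. Genes named are the 5, the other GH5_7, GH2 and GH27 genes, the 2 annotated enzymes nearest in profile to each, and at most 2 genes per list, those with the largest called change between pine and aspen. Genes beside them in the annotation were added after their values were seen. Of the gene numbers, 12680 matched the annotation of assembly Pycco1, used for spans, overlaps and order. No sequences are shown.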

Additional observations from a re-analysis of the deposited data

Results flagged for a closer look

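In 2 of the 5 genes the change against maltose differed between pine and aspen, as tested by the pine to aspen contrast. Of all genes tested, 30.3% were called in that contrast. The fold changes over maltose were known when the genes were picked and are a description. For PYCCODRAFT_236998 the log2 fold change over maltose was -3.41 on pine and -1.80 on aspen, a difference of -1.61 (edgeR's quasi-likelihood test, adjusted p = 0.000883). For PYCCODRAFT_1388575 it was 1.89 on pine and 3.32 on aspen, a difference of -1.43 (adjusted p = 0.0287). The same test lost this call with trim length (adjusted p = 0.0764) or code prefix (0.105) in the model, and without the maltose libraries (0.0536). It was also lost when pine replicate 2, aspen replicate 1 or aspen replicate 3 was left out. The comparisons of pine and of aspen with maltose share the maltose libraries, which cancel in the difference but entered the estimate of the spread. With 3 cultures per group, single cultures were not screened for outlying values.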

How the results depend on the processing

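Under the settings other than leaving out a library, 42 of 45 tested pine to aspen values of the 5 genes kept their direction and side of the threshold. The 10 ratios of 2 enzymes were rerun only with a count of 2 added in place of 0.5, and all kept their direction. Their smallest possible p of 0.1 meant that none could cross the threshold. Of 80 fold changes over maltose, which had no test, 79 moved by less than the spread between replicates, and of 96 counts of called genes 92 stayed within 1.5 times. The 3 calls lost among the 5 genes were those of PYCCODRAFT_1388575 between pine and aspen, with a log2 fold change of -1.31 with trim length, -1.38 with the library code prefix and -1.42 with the pine and aspen libraries alone. For PYCCODRAFT_1359888 the change on aspen over maltose was 4.74, and that on pine 5.20, with trim length in the model. With the code prefix in the model 682 genes were called higher and 771 lower on pine than on aspen, in place of 1693 and 1676. With DESeq2 size factors, and with DESeq2's own test, 1 of the 4 other tested GH5_7, GH2 and GH27 genes was called higher on pine than on aspen in place of 0. When each library was left out in turn, the pine to aspen log2 fold change of PYCCODRAFT_1388575 ranged from -2.12 to -1.01 and that of PYCCODRAFT_1359888 from -0.58, the only change of sign among the 5 genes, to 0.68. None of the 4 other tested GH5_7, GH2 and GH27 genes was called between the woods by edgeR with all libraries. Of these, PYCCODRAFT_1360093 changed sign without pine replicate 2 (-0.55) and aspen replicate 2 (-0.18). PYCCODRAFT_1438782 did so without pine replicate 2 (-0.03) and, at nearly 0, without aspen replicate 1. The number of all genes called ranged from 1056 to 1985 higher and from 1102 to 2196 lower. That of the other GH5_7, GH2 and GH27 genes ranged from 0 to 1 in each direction. The cause of these shifts was not tested.

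The sample labels give replicate numbers and no pairing of cultures, and the main model used none. The check below does not settle whether a pairing existed. The deviations of same-numbered libraries from their group means correlated with r of -0.05 to 0.31, over 0.1 in 4 of 9 pairs. The same number gave the highest r in 4 of the 9. With the replicate number as a block, the pine to aspen log2 fold change was -1.52 for PYCCODRAFT_1388575 (adjusted p = 0.0177), -1.60 for PYCCODRAFT_236998, 0.21 for PYCCODRAFT_1359888, 0.36 for PYCCODRAFT_1369807 and 0.27 for PYCCODRAFT_1440257. The block changed no call of these 5, and 1896 genes were then called higher and 1896 lower, in place of 1693 and 1676. It ended the call of PYCCODRAFT_1070165 on pine over maltose (1.59, adjusted p = 0.0555). The 34 to 53 reads of PYCCODRAFT_236998 per pine library limit its precision, and the 3 cultures per group limit all tests.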
